A study of Mus musculus with 6 samples.

Results

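The members described here are 74 of the 8078 entries in a table of gene expression of sorted horizontal basal cells, which lie on the basement membrane of the olfactory epithelium and serve as its reserve stem cells. They were taken by name alone and not by any measured value: every single-gene entry of the Ift, Bbs, Dnah, Dnai, Dnal, Rsph, Tekt, Spag, Ttc, Tctn and Cep families belongs. The mice were 12 weeks old and of a B6 background with 2 alleles, KRT5-CreER and Ai9 fl(Stop)TdTomato. Tamoxifen given 2 weeks earlier switched on TdTomato in cells that use the keratin 5 promoter, and cells were sorted on that fluorescence. There were 3 injured libraries, from mice that had breathed methyl bromide (180 ppm for 8 h) and were sampled 18 h later, and 3 uninjured libraries from mice that were not exposed. Both groups carried the same alleles and had the same tamoxifen, each library pooled cells from several animals, and a label that follows keratin 5 also marks any cell that descended from a labelled one. The comparison asks how these cells differ from resting ones early after injury.

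Cilia are built on a centriole that has docked at the cell surface. Intraflagellar transport trains carry material along the cilium, the BBSome moves membrane proteins in and out, and a transition zone gates the base. Motile cilia add dynein arms, radial spokes and a central apparatus. Olfactory neurons carry many sensory cilia that hold the odorant receptors, respiratory ciliated cells beat, and basal cells of epithelia commonly have at most a primary cilium. The Cep proteins build the centriole and its appendages, and the same centrioles organize the spindle in mitosis. The family names do not all denote cilium proteins, since a tetratricopeptide repeat or a sperm antigen name says nothing of location. A cilium or centrosome role was assigned to 49 members and not to 25, of the Ttc and Spag names. A member without an assigned role may still act at the cilium or centrosome.

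Values are taken to be FPKM, a level per transcript length, and are given as mean ± SD over n = 3 libraries in each group or as single libraries in the order of replicates 1, 2 and 3. Each change is the injured mean minus the uninjured mean of log2(FPKM + 1), with the standard error of the fit, and on this scale the change of a low gene is understated. Nothing in the labels says that the pools of a group share no animals, so p-values measure only the spread between these libraries, which may be technical. Summed FPKM was 164265 to 231755 per library and read depth is unknown. RNA of marker genes of other cell types was present, as given below, and which cells it came from was not tested. Fewer cells of a type cannot be told apart from less RNA per cell in such pools. Of the 10 markers of horizontal basal cells, 6 were listed, and their summed level was 261, 170 and 346 FPKM in injured libraries and 291, 297 and 260 FPKM in uninjured ones. Injured replicate 2 was the lowest library for all 6 of them. Xist, the RNA of the inactive X chromosome, stood at 0.324 ± 0.249 FPKM in injured and 29.4 ± 3.82 FPKM in uninjured libraries and was the only gene called, so that injury and the sex of the pools cannot be told apart in anything below. The Y-linked gene Eif2s3y had 23.0, 29.3 and 21.1 FPKM in injured and 18.8, 2.73 and 2.55 FPKM in uninjured libraries, and Ddx3y, Kdm5d and Uty were likewise higher in uninjured replicate 1 than in the other uninjured libraries, so the uninjured pools also differed among themselves. Mir703, an abundant entry, took 8.01, 11.6 and 18.6% of the summed FPKM in injured and 25.4, 22.0 and 25.3% in uninjured libraries. Without it and after rescaling, the median change was -0.02 over the members and 0.02 over all genes tested.

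Regulatory factors of the RFX family control many of these genes through the X-box, a pair of inverted arms that contain the letters GTTGCC or close variants. Promoter windows of RefSeq (build GRCm38.p6), from 250 bases before to 50 after an annotated start, were found for 67 of the 74 members, 80 windows in all. A complete X-box, with up to 3 bases between the arms and on either strand, lay in 7 of 80 member windows, which is 8.75%, and in 1.53% of all 32851 windows. The arm GTTGCC alone, on either strand and counted also within a complete X-box, lay in 27.5% of member windows and 12.5% of all windows. Windows of the same gene overlap, so these shares are a description. Among the genes with a window, complete X-boxes were found for 3 of 14 motile axoneme genes and 1 of 10 intraflagellar transport genes. They were found for 2 of 3 transition zone genes and for 0 of 12 centrosome and 0 of 6 BBSome genes. The numbers are small, and the difference between roles was not tested. The stretches below are the 150 bases just upstream of an annotated start. They are shown so that axoneme genes can be read beside a transport gene and a transition zone gene. Each holds a site, unlike most member windows. Capitals mark a complete X-box, or in Spag6 the arm GTTGCC.
Dnaic1, chr4:41569644-41569793, plus strand: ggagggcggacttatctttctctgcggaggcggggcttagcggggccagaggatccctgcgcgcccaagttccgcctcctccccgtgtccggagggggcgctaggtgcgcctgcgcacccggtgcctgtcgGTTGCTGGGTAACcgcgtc
Tekt2, chr4:126325647-126325796, minus strand: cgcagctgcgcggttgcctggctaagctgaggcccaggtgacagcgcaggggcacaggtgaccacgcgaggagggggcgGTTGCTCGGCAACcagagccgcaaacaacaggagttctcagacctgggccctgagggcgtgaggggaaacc
Spag6, chr2:18698872-18699021, plus strand: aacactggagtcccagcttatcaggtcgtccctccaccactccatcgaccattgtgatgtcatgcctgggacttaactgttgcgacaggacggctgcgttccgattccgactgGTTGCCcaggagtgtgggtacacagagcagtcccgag
Ift57, chr16:49699144-49699293, plus strand: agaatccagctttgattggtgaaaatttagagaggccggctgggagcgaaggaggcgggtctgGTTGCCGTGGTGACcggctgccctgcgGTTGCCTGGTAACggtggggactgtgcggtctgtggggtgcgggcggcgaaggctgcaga
Tctn3, chr19:40612232-40612381, minus strand: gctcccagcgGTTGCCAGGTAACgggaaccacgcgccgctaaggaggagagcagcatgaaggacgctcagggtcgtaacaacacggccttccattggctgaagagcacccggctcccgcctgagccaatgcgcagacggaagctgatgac
Ift57 held 2 complete X-boxes within this stretch. The site began 19 bases upstream of that start in Dnaic1, 71 in Tekt2, 37 in Spag6 and 140 in Tctn3. For Tekt2 the distance depends on which of its annotated starts is used, and another of its windows held no X-box. A match of letters does not show that a factor binds there.

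No member passed the test over the 6 libraries, which does not show that none changed. Of the 74 members, 73 had a mean of at least 1 FPKM over the libraries and were tested with limma, and 0 passed an adjusted p of 0.05, where 0.0125% of the 7987 genes tested passed. At an unadjusted p of 0.05 there were 3 members higher and 1 lower in injured libraries, against 7.15% and 4.04% of all genes tested. The injured libraries lay above all uninjured ones for 9 members, which is 12.3% beside 12.0% of all genes, and below all of them for 4, which is 5.48% beside 6.75%. Both shares are near the background and are no result about the families. The median change over the 73 members was 0.13, beside 0.16 over all genes tested. After upper-quartile scaling, which moved the median of all genes by over 0.1, the medians were -0.04 and -0.01. Changes of 0.1 to 0.2 are thus within what the scaling sets.

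The members were split among the injured libraries. The median member differed from the uninjured mean by 0.04, 0.35 and -0.17 on the log2 scale in injured replicates 1, 2 and 3, whereas the median of all genes tested differed by 0.14, 0.01 and 0.18. Injured replicate 2 was the highest of the 6 libraries for 29 of 73 members, or 39.7%, compared with 20.3% of all genes tested. Injured replicate 3 was the lowest library for 20 of them, or 27.4%, compared with 12.9% of all genes. These shares describe single libraries and carry no test of injury. Without injured replicate 2 the members' median change was -0.004, with 0.17 for all genes. The groups then did not overlap for 15 members higher and 16 lower, or 20.5% and 21.9%, against 29.4% and 14.5% of all genes tested.

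**Figure D1:**
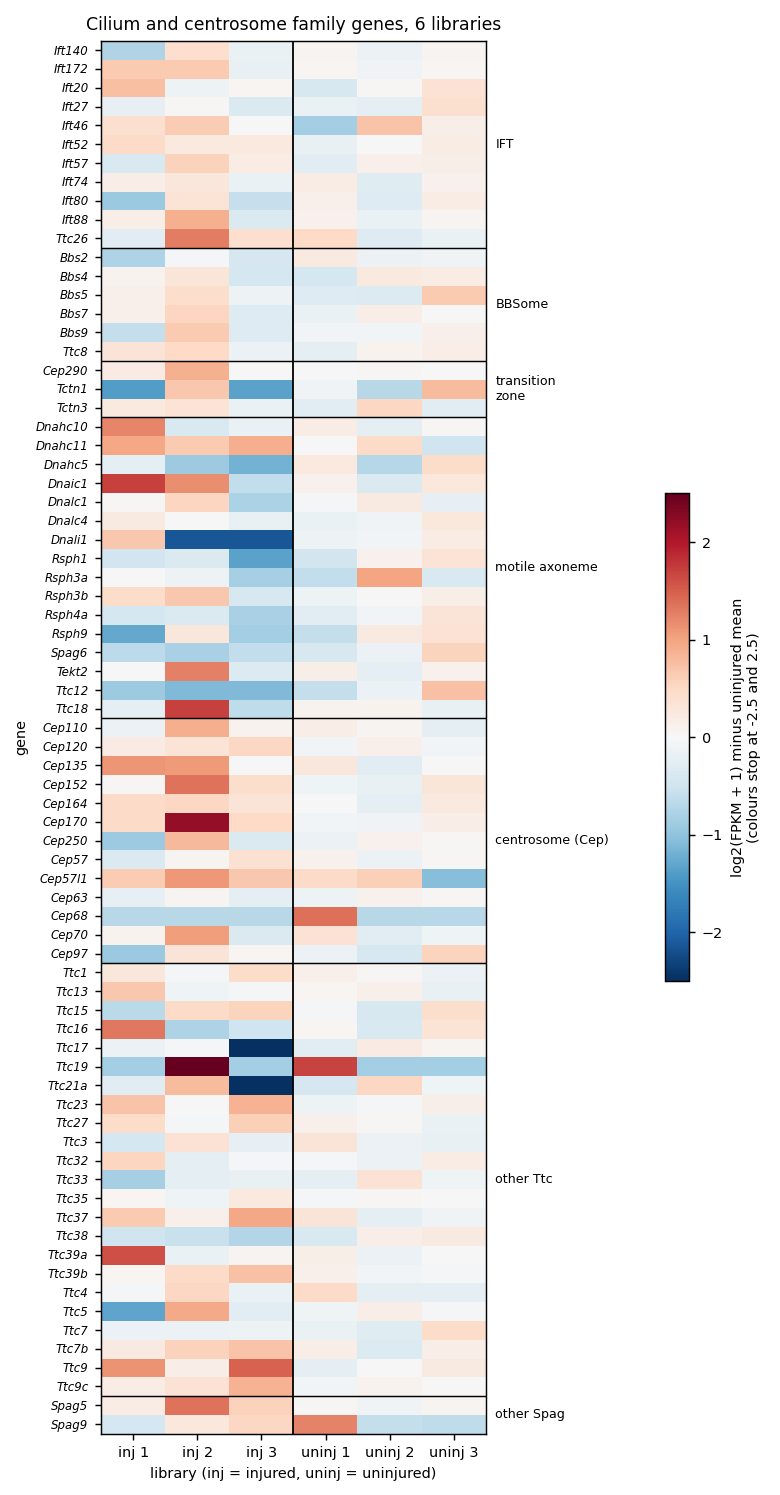
Colour shows log2(FPKM + 1) minus the mean of the uninjured libraries for all 74 members (rows, by role) in the 3 injured (left) and 3 uninjured libraries. The column of injured replicate 2 is mostly red among the transport, BBSome and Cep genes, and that of injured replicate 3 mostly blue among the axoneme genes, where it was the lowest library for 11 of 16.

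Intraflagellar transport genes were expressed in every library. The role held 11 members, the Ift entries and Ttc26, which encodes a subunit of the anterograde complex, and their medians in injured replicates 1, 2 and 3 stood 0.17, 0.42 and -0.16 from the uninjured mean. Ift20, which also works at the Golgi in sending cargo to the cilium, was the most abundant of all 74 members. It had 87.5, 47.2 and 53.8 FPKM in injured and 39.2, 53.2 and 66.4 FPKM in uninjured libraries, and the groups overlapped (change 0.22 ± 0.33 SE). Ift52, a core subunit of the anterograde complex, had 16.9, 14.3 and 14.2 FPKM in injured and 10.4, 11.7 and 13.7 FPKM in uninjured libraries. It was the transport gene whose groups did not overlap, with a change of 0.32 ± 0.24 SE (limma adjusted p = 0.627). The change was 0.15 after upper-quartile scaling.

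Ift57 averaged 16.7 ± 5.60 FPKM in injured and 14.7 ± 2.45 FPKM in uninjured libraries, and Ift74 14.1 ± 2.36 and 13.1 ± 2.40 FPKM, both within the spread. Ift88, needed for cilium assembly, had 10.1, 17.2 and 6.64 FPKM in injured and 9.59, 7.72 and 9.27 FPKM in uninjured libraries. Ift80 had 3.87, 10.7 and 5.26 FPKM in injured and 9.18, 6.47 and 9.56 FPKM in uninjured libraries. Both were thus highest in injured replicate 2, as was Ift140 of the retrograde complex, with 2.02, 5.79 and 3.51 FPKM in injured and 4.37, 3.60 and 4.34 FPKM in uninjured libraries. Ift172 of the anterograde complex had 11.9, 12.0 and 6.26 FPKM in injured and 7.50, 6.70 and 7.46 FPKM in uninjured libraries, and Ttc26 had 1.72, 6.89 and 3.33 FPKM in injured and 3.60, 1.59 and 1.88 FPKM in uninjured libraries. Injured replicate 2 was the highest library for 7 of the 11 transport genes, Ift27 and Ift46 not among them.

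BBSome genes had no common shift between the groups. The median change of the 6 members was 0.05, and -0.11 after upper-quartile scaling. Bbs2 had 8.04, 14.2 and 10.7 FPKM in injured and 17.3, 13.1 and 13.5 FPKM in uninjured libraries (change -0.41 ± 0.28 SE, limma adjusted p = 0.589). Bbs9, a scaffold subunit, had 4.88, 12.8 and 6.10 FPKM in injured and 7.41, 7.46 and 8.65 FPKM in uninjured libraries. Bbs5, which binds phosphoinositides, averaged 8.28 ± 1.84 and 7.77 ± 3.77 FPKM in injured and uninjured libraries. For these and the other subunits, Bbs4, Bbs7 and Ttc8, the groups overlapped, and injured replicate 2 was the highest library for 4 of the 6.

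Among transition zone genes, Tctn1 and Cep290 were both high in injured replicate 2. Tctn1, a tectonic protein of the zone, had 1.24, 8.45 and 1.33 FPKM in injured and 4.52, 2.64 and 9.15 FPKM in uninjured libraries. Injured replicate 2 was alone among the injured libraries in reaching the uninjured range (change -0.68 ± 0.62 SE, and -1.37 without that library, limma adjusted p = 0.685 and 0.139). Cep290, which links the membrane of the zone to its microtubules, had 8.19, 13.7 and 6.96 FPKM in injured libraries against a narrow 6.94 ± 0.108 FPKM in uninjured ones. Tctn3 averaged 3.94 ± 0.901 FPKM in injured and 3.57 ± 1.51 FPKM in uninjured libraries.

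**Figure D2:**
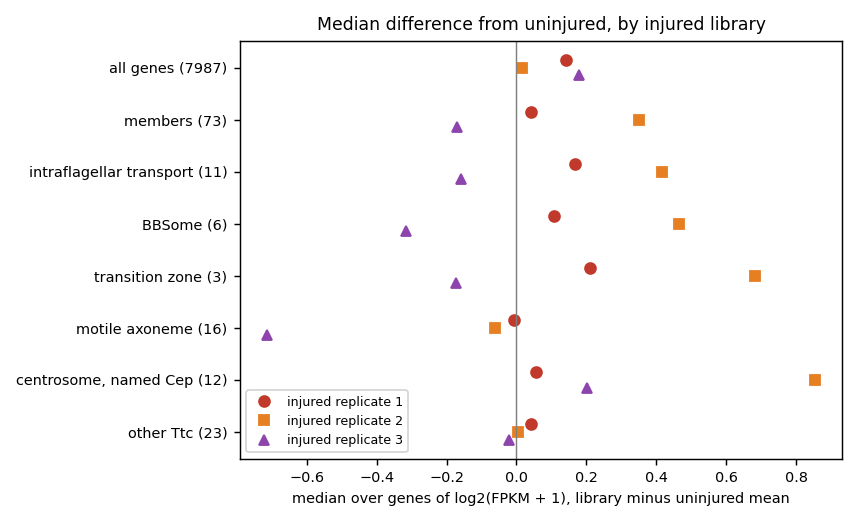
Points are medians over the genes of each role (number in brackets) of log2(FPKM + 1) in an injured library minus the uninjured mean. All genes tested lie between 0.01 and 0.18, while the Cep genes reach 0.85 in injured replicate 2 and the motile axoneme genes -0.71 in injured replicate 3.

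Genes of the motile axoneme had changes of both signs. The median change was -0.20 over 16 members, with 9 negative and 7 positive changes, beside the median of 0.16 over all genes tested. With upper-quartile scaling the medians of the role and of all genes were -0.34 and -0.01, and with quantile normalization they were -0.30 and 0.01. The difference from the transport genes was not tested. Injured replicate 3 was the lowest library for 11 of 16 and uninjured replicate 3 the highest for 7 of 16. The shares over all genes tested were 12.9% and 11.0%. Without injured replicate 2 the counts were 12 and 7 of 16, with 16.4% and 15.8% of all genes. The medians in injured replicates 1, 2 and 3 stood -0.01, -0.06 and -0.71 from the uninjured mean, and injured replicate 3 was the library in which the role was low.

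Radial spoke genes make up 5 of the 16. Rsph1 of the spoke head had 9.08, 9.96 and 4.56 FPKM in injured and 9.24, 14.2 and 16.9 FPKM in uninjured libraries, and the groups overlapped (change -0.73 ± 0.34 SE, limma adjusted p = 0.463). Rsph4a, also of the spoke head, had 2.77, 2.95 and 1.90 FPKM in injured and 3.25, 3.86 and 5.37 FPKM in uninjured libraries, without overlap (change -0.54 ± 0.37 SE, limma adjusted p = 0.593). Rsph9 of the same structure had 3.31, 11.7 and 4.82 FPKM in injured and 5.97, 11.3 and 12.4 FPKM in uninjured libraries. The stalk genes Rsph3a and Rsph3b are near-identical copies whose reads may have been shared out between them, and Rsph3a had 19.2 FPKM in uninjured replicate 2 where every other library had at most 9.17 FPKM. Rsph3b averaged 10.7 ± 4.12 FPKM in injured and 8.42 ± 0.894 FPKM in uninjured libraries.

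Spag6, a protein of the central apparatus, had 1.78, 1.49 and 1.86 FPKM in injured and 2.30, 2.98 and 5.42 FPKM in uninjured libraries. Ttc12, a factor for assembling dynein arms, had 3.36, 2.81 and 2.80 FPKM in injured and 4.36, 6.41 and 12.6 FPKM in uninjured libraries. Both lay lower in every injured library than in any uninjured one, and uninjured replicate 3 held the highest value of each. The changes were -0.70 ± 0.44 SE for Spag6 and -1.03 ± 0.38 SE for Ttc12 (limma adjusted p = 0.564 and 0.375). Ttc18, an axonemal protein also named Cfap70, had 2.74, 13.5 and 1.85 FPKM in injured and 3.71, 3.72 and 2.90 FPKM in uninjured libraries. Tekt2, a filament protein of the doublet wall, had 0.852, 3.44 and 0.463 FPKM in injured and 1.05, 0.567 and 1.01 FPKM in uninjured libraries. Ttc18 and Tekt2 were highest in injured replicate 2 by over 3 times the next library.

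Dynein arm genes had changes of both signs. Dnahc11, an outer arm heavy chain, had 42.6, 34.1 and 41.0 FPKM in injured and 21.5, 30.2 and 14.8 FPKM in uninjured libraries. All injured values lay above all uninjured ones, with a change of 0.85 ± 0.30 SE (limma adjusted p = 0.369) that was 0.66 after upper-quartile scaling. Its level was far above that of the other heavy chains, for Dnahc5, also of the outer arm, had 2.92, 1.45 and 1.04 FPKM in injured and 4.46, 1.83 and 5.32 FPKM in uninjured libraries. Dnahc10, an inner arm heavy chain, had 3.78, 0.586 and 0.827 FPKM in injured and 1.35, 0.764 and 1.09 FPKM in uninjured libraries. Dnahc11 overlaps Cdca7l in the RefSeq annotation, and nothing in the sources used here says that counting used strand, so reads of the pair may have been mixed. Cdca7l itself was listed at 8.39, 4.79 and 9.39 FPKM in injured and 7.30, 6.89 and 10.3 FPKM in uninjured libraries, lower than Dnahc11 in each.

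Dnaic1, an outer arm intermediate chain, had 6.71, 4.31 and 0.538 FPKM in injured and 1.54, 0.844 and 1.83 FPKM in uninjured libraries, so the injured libraries lay on both sides of the uninjured ones. Dnali1, an inner arm light intermediate chain, had 6.03 FPKM in injured replicate 1 and the table's lowest value, 0.001, in injured replicates 2 and 3, against 3.08, 3.25 and 4.03 FPKM in uninjured libraries. What that lowest value stands for is not given in the sources used here. Dnali1 overlaps Gnl2, which was well expressed in all libraries. The light chain genes Dnalc1 and Dnalc4 averaged 3.69 ± 2.03 and 6.65 ± 1.13 FPKM in injured and 3.64 ± 0.698 and 6.58 ± 1.23 FPKM in uninjured libraries, with changes of -0.07 and 0.02.

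**Figure D3:**
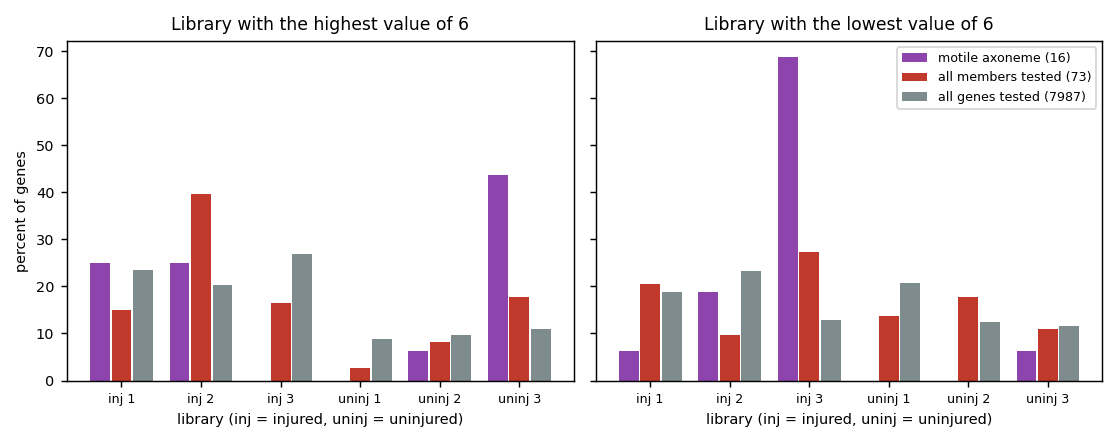
Bars give the percent of genes for which each library held the highest (left) or the lowest (right) of its 6 values, for the 16 motile axoneme genes, all 73 members tested and all 7987 genes tested. Injured replicate 2 is the highest for 39.7% of members, and injured replicate 3 the lowest for 11 of the 16 axoneme genes.

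Markers of ciliated and neuronal cells also differed between the libraries. Per the labels, respiratory tissue was dissected away and cells were sorted on TdTomato, steps that would be expected to remove such cells. Of 12 markers of respiratory ciliated cells 10 were listed, none at the table's lowest value. Their summed level was 115, 80.7 and 56.1 FPKM in injured and 83.0, 106 and 196 FPKM in uninjured libraries. Uninjured replicate 3 was the highest library for 8 of the 10 and injured replicate 3 the lowest for 6, and the same libraries were highest for 7 and lowest for 11 of the 16 axoneme genes. The medians of the axoneme genes stood -0.01, -0.06 and -0.71 from the uninjured mean in injured replicates 1, 2 and 3. Those of the ciliated cell markers stood -0.09, -0.96 and -1.14 from it. All 10 markers had a negative change, with a median of -0.58. With limma 0 passed the adjusted p, and 2, both lower, had an unadjusted p under 0.05, where 4.04% of all genes tested were lower at that p. Of 12 markers of mature olfactory neurons 9 were listed, none at the lowest value, and they summed to 149, 384 and 130 FPKM in injured and 447, 582 and 763 FPKM in uninjured libraries. All 9 had a negative change, with a median of -1.20. Their medians in injured replicates 1, 2 and 3 stood -1.81, 0.22 and -1.58 from the uninjured mean. Injured replicate 2 was the highest library for 4 of the 9, or 44.4%, compared with 20.3% of all genes tested. With limma 0 of the 9 passed the adjusted p and 4 were lower at an unadjusted p under 0.05, and without injured replicate 2 there were 8 of 9 called lower, where 1.14% of all genes tested were. Of 9 markers of immature neurons and globose basal cells 8 were listed, none at the lowest value, and these summed to 27.3, 249 and 22.6 FPKM in injured and 24.7, 40.8 and 36.7 FPKM in uninjured libraries. The growth cone protein Gap43 alone had 2.44, 113 and 2.76 FPKM in injured and 5.06, 13.1 and 12.0 FPKM in uninjured libraries. The 7 listed of 12 mitotic markers, with Aurka at the lowest value in uninjured replicates 1 and 2, summed to 27.3, 57.2 and 21.3 FPKM in injured and 18.5, 18.3 and 17.8 FPKM in uninjured libraries. The part of these cells in the members' values was not tested. The 4 listed of 8 sustentacular cell markers summed to 490, 206 and 619 FPKM in injured and 256, 300 and 318 FPKM in uninjured libraries, most of it from Krt18. The sum does not describe the list, since 3 of the 4 had a negative change and 1 a positive one. Their median change was -0.30, within a range from -2.18 to 0.93.

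**Figure D4:**
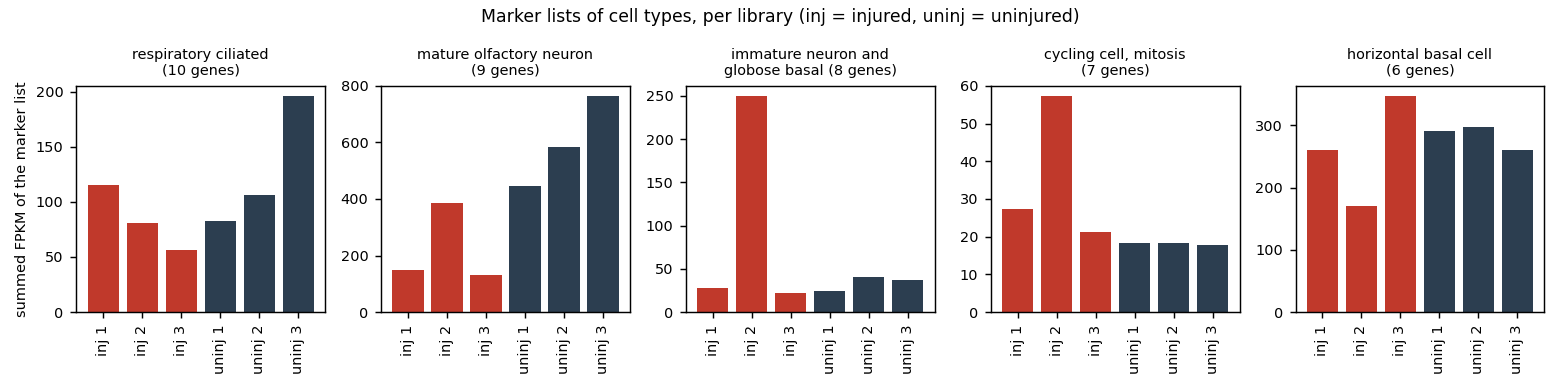
Bars are the summed FPKM of each marker list in every library, with injured libraries in red and uninjured ones in dark blue. Immature neuron and globose basal markers reach 249 FPKM in injured replicate 2 and at most 40.8 FPKM in any other library, and ciliated cell markers run from 56.1 FPKM in injured replicate 3 to 196 FPKM in uninjured replicate 3.

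Centrosome genes were mostly high in injured replicate 2. The 13 Cep members of this role had a median change of 0.32 over the 12 tested, 0.16 after upper-quartile scaling and 0.12 without injured replicate 2. The medians in injured replicates 1, 2 and 3 stood 0.06, 0.85 and 0.20 from the uninjured mean. Injured replicate 2 was the highest library for 7 of the 12. Cep170, a protein of the subdistal appendages, had 6.90, 25.1 and 7.06 FPKM in injured and 4.42, 4.35 and 5.37 FPKM in uninjured libraries. All injured values were above all uninjured ones, but the change of 1.06 ± 0.45 SE was 0.49 without injured replicate 2 (limma adjusted p = 0.425 and 0.253). Cep152, which recruits the kinase that starts centriole duplication, had 2.68, 8.29 and 3.92 FPKM in injured and 2.36, 2.17 and 3.48 FPKM in uninjured libraries. Cep250, of the linker between centrioles, had 2.00, 8.80 and 3.37 FPKM in injured and 4.08, 5.02 and 4.75 FPKM in uninjured libraries, so injured replicates 1 and 3 lay below the uninjured ones and replicate 2 above.

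The other Cep genes are Cep120, Cep164, Cep57, Cep63, Cep135, Cep70, Cep110, Cep97, Cep57l1 and Cep68. Cep120, needed for centriole elongation, had 10.6, 11.6 and 13.4 FPKM in injured and 8.56, 9.97 and 8.58 FPKM in uninjured libraries (change 0.36 ± 0.24 SE, limma adjusted p = 0.585). Cep164, of the distal appendages that dock the centriole to the membrane, had 5.90, 6.15 and 5.21 FPKM in injured and 3.99, 3.21 and 4.87 FPKM in uninjured libraries (change 0.44 ± 0.29 SE, limma adjusted p = 0.585). The groups did not overlap for either gene, and for both the change was nearly the same without injured replicate 2, at 0.37 and 0.40, though no adjusted p passed. After upper-quartile scaling the changes of Cep120 and Cep164 were smaller, at 0.19 and 0.28. Cep57 and Cep63, which work in the pericentriolar material and in centriole duplication, averaged 11.0 ± 3.03 and 12.3 ± 1.62 FPKM in injured and 10.5 ± 0.989 and 13.4 ± 1.20 FPKM in uninjured libraries. Cep135, of the centriole cartwheel, had 8.70, 8.42 and 3.58 FPKM in injured and 4.52, 2.70 and 3.55 FPKM in uninjured libraries, high in injured replicates 1 and 2 and within the uninjured range in replicate 3. Cep70 had 6.69, 14.0 and 4.64 FPKM in injured and 8.30, 5.03 and 5.72 FPKM in uninjured libraries. Cep110, or centriolin, of the subdistal appendages, and Cep97, which caps the centriole against early cilium growth, also overlapped between groups, with changes of 0.28 ± 0.37 SE and -0.19 ± 0.53 SE. Cep57l1 had 2.23, 3.42 and 2.31 FPKM in injured libraries, against 1.89 and 2.13 FPKM in uninjured replicates 1 and 2 and the lowest value in replicate 3. Cep68 stood at the lowest value in all libraries except uninjured replicate 1, at 3.19 FPKM, and was the member that missed the filter.

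**Figure D5:**
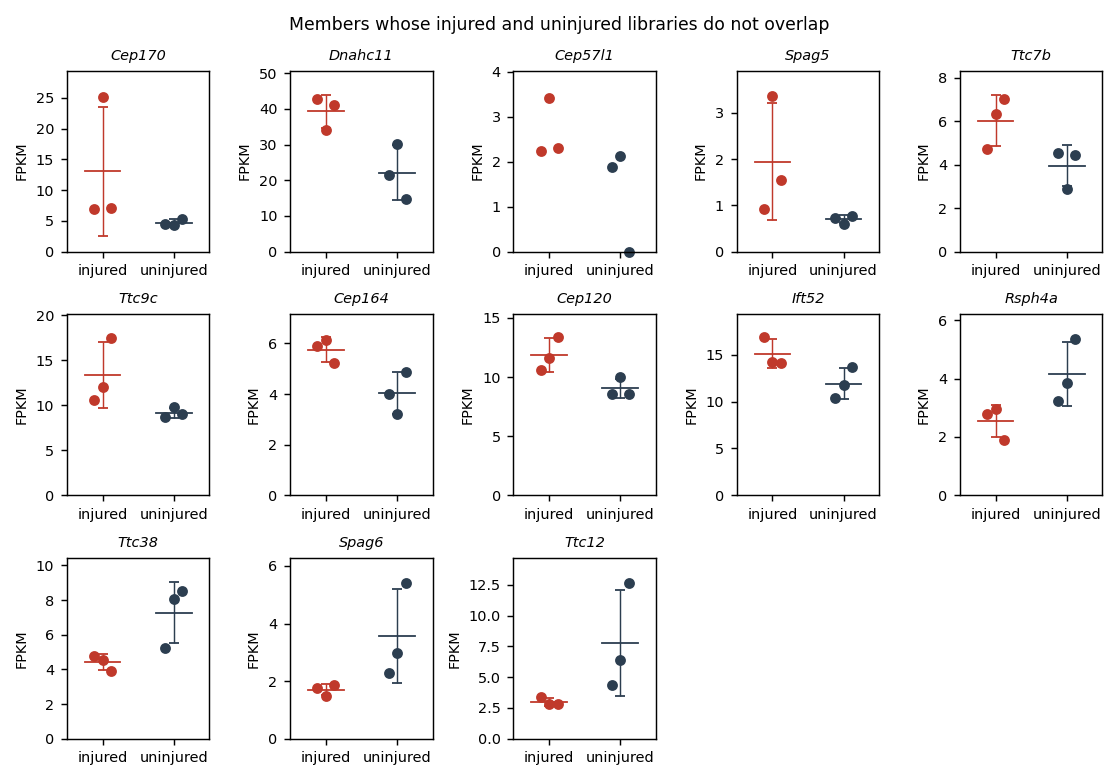
Points are FPKM in single libraries of the 13 members whose injured (left, red) and uninjured (right, dark blue) libraries do not overlap, with the mean and SD as bars except for Cep57l1, which is at the lowest value in uninjured replicate 3. The groups lie close together in most panels, and the injured values of Cep170 and Spag5 are set wide by replicate 2, at 25.1 and 3.35 FPKM.

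The remaining Spag and Ttc members are grouped with the others by name. Spag5, the spindle protein astrin, had 0.930, 3.35 and 1.54 FPKM in injured and 0.726, 0.601 and 0.771 FPKM in uninjured libraries, without overlap and with the highest value in injured replicate 2 (change 0.71 ± 0.60 SE, limma adjusted p = 0.657). Spag9, a scaffold for kinase signalling and vesicle motors, had 10.5, 17.7 and 21.5 FPKM in injured and 35.9, 9.39 and 9.06 FPKM in uninjured libraries, with uninjured replicate 1 apart from its group. Among 23 Ttc members the median change was 0.12, close to that of all genes. Injured replicate 3 was the highest library for 10 of them, or 43.5%, compared with 26.8% of all genes tested. For 5 of them it was injured replicate 2. As a group, these genes thus did not have the library pattern of the transport and Cep genes. Ttc21a, however, was highest in injured replicate 2 and lowest in injured replicate 3. The most abundant were Ttc3, a ubiquitin ligase, Ttc1, and Ttc35 of the membrane insertion complex of the endoplasmic reticulum. They averaged 32.9 ± 10.0, 22.0 ± 3.97 and 17.7 ± 2.21 FPKM in injured and 34.6 ± 7.24, 18.4 ± 1.88 and 16.9 ± 0.415 FPKM in uninjured libraries.

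Ttc9 was the member whose call turned on a library. It had 10.2, 4.78 and 13.3 FPKM in injured and 3.44, 4.12 and 5.04 FPKM in uninjured libraries, with injured replicate 2 inside the uninjured range. Its change of 0.92 ± 0.36 SE did not pass (limma adjusted p = 0.397), and without injured replicate 2 it was 1.29 and passed (limma adjusted p = 0.0431), where 3.43% of all genes tested were called higher and 1.14% lower. Of the other Ttc genes without overlap, Ttc7b, of a complex that anchors a phosphoinositide kinase, averaged 6.04 ± 1.19 FPKM in injured and 3.97 ± 0.931 FPKM in uninjured libraries. Ttc9c averaged 13.4 ± 3.67 and 9.14 ± 0.570 FPKM in injured and uninjured libraries. Ttc38 had 4.77, 4.57 and 3.92 FPKM in injured and 5.24, 8.08 and 8.53 FPKM in uninjured libraries, the lower group being the injured one (limma adjusted p = 0.486). Ttc39a reached 14.3 FPKM in injured replicate 1 and at most 4.54 FPKM elsewhere. Ttc17 and Ttc21a stood at the lowest value in injured replicate 3, and Ttc19, of mitochondrial complex III assembly, stood there in 4 libraries with 10.5 FPKM in injured replicate 2 and 4.85 FPKM in uninjured replicate 1. Ttc5 had 4.20, 23.9 and 9.73 FPKM in injured and 11.0, 13.5 and 11.4 FPKM in uninjured libraries, the injured ones on both sides of the rest. Ttc37, of the complex that assists RNA decay, had 6.81, 4.38 and 8.61 FPKM in injured and 5.20, 3.19 and 3.62 FPKM in uninjured libraries. Ttc4, Ttc7, Ttc13, Ttc15, Ttc16, Ttc23, Ttc27, Ttc32, Ttc33 and Ttc39b all overlapped between groups, with changes from -0.41 for Ttc33 to 0.53 for Ttc23. Several of these genes overlap another coding gene in the annotation, as 18 of the 74 members do.

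Cilium and centrosome genes with other names, 196 symbols in 9 lists, were read beside the families. With limma 0 of their 122 genes tested passed over the 6 libraries, and 7 higher and 1 lower had an unadjusted p under 0.05, which is 5.74% and 0.820% of them, against 7.15% and 4.04% of all genes tested. Of 15 other transport genes 12 were tested, with a median change of 0.19. Wdr34, a subunit of the retrograde motor, had 8.22, 6.29 and 6.22 FPKM in injured libraries and was listed at 0.001 in all 3 uninjured ones (limma adjusted p = 0.0927, and 0.0130 without injured replicate 2). The most abundant transport genes here were Tctex1d2, at 29.8 ± 18.3 FPKM in injured and 24.5 ± 14.3 FPKM in uninjured libraries, and Hspb11, at 13.2 ± 4.09 and 13.0 ± 2.49 FPKM. Among 17 transition zone genes tested the median was 0.27, with 12 positive changes. B9d1 averaged 16.5 ± 3.81 FPKM in injured and 9.77 ± 0.990 FPKM in uninjured libraries, without overlap (limma adjusted p = 0.381). Among 4 partners of the BBSome the median was 0.12, with Arl6, the GTPase that recruits it, at 14.8 ± 4.75 and 12.5 ± 1.92 FPKM, and Lztfl1 at 9.92 ± 1.85 and 12.2 ± 7.91 FPKM in injured and uninjured libraries.

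Among 27 motile cilium genes outside the families the median change was -0.26, with 19 negative, and injured replicate 3 was the lowest library for 18. Of these 27, 3 are also ciliated cell markers. The abundant genes Tubb2c and Cetn2 were at 43.4 ± 10.9 and 29.8 ± 4.91 FPKM in injured and 42.0 ± 4.31 and 29.4 ± 6.30 FPKM in uninjured libraries. Foxj1, the master regulator of motile cilia, is also among the ciliated cell markers summed above. It had 11.0, 6.63 and 8.31 FPKM in injured and 9.70, 7.66 and 20.6 FPKM in uninjured libraries. The median over 7 regulators was 0.10, with Rfx7 at 11.2 ± 1.33 and 9.26 ± 1.36 FPKM. Of the RFX factors, Rfx3 had 4.60, 20.6 and 6.51 FPKM in injured and 10.1, 6.73 and 6.90 FPKM in uninjured libraries, high in injured replicate 2 alone.

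The 17 other centriole genes had a median of 0.34, which was 0.11 without injured replicate 2, the highest library for 12 of them. Cetn3, a centrin of the centriole lumen, was at 117 ± 13.7 FPKM in injured and 97.8 ± 16.4 FPKM in uninjured libraries. The 22 pericentriolar and nucleation genes had a median of 0.13, with the satellite protein Pcm1 at 32.6 ± 8.80 and 31.8 ± 3.86 FPKM, and with Pafah1b1, a dynein regulator, at 30.1 ± 5.63 and 16.9 ± 0.233 FPKM (limma adjusted p = 0.337). Ninl, a centrosomal nucleation protein, had 2.25, 27.7 and 1.80 FPKM in injured and 2.43, 1.72 and 2.78 FPKM in uninjured libraries. The 10 signalling and membrane genes had a median of -0.05, with Pde6d at 32.0 ± 13.7 and 37.2 ± 15.3 FPKM and Arl3 overlapping likewise. The 7 hedgehog genes tested had a median of -0.20 and 6 negative changes, with the co-receptor Boc at 10.9 ± 4.53 and 16.4 ± 1.93 FPKM and the transducer Smo at 7.58 ± 1.28 and 10.4 ± 4.06 FPKM in injured and uninjured libraries.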

How the data were processed

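Horizontal basal cells were compared by RNA sequencing of 3 injured and 3 uninjured libraries. Nextera XT libraries were prepared from polyA RNA, per the labels. Per the submitters' processing notes, FastQC, TopHat, Cuffdiff and the mm9 build were used, with no version or role given. The authors deposited 1 value per gene and library, read as FPKM since the notes name Cuffdiff and, per the file headers, the gene column has its usual name. At most 2.38% of ratios of genes under 3 FPKM agreed within 1%, so no whole reads were recovered, and no counting intervals are given. Of 8078 listed genes, 7987 whose mean reached 1 FPKM were fitted with limma 3.58.1 (R 4.3.3) on log2(FPKM + 1) with trend and robust eBayes and Benjamini-Hochberg adjustment over all of them, after a test on simulated data. The members and lists were chosen with earlier results of these data known, and roles were assigned after values had been seen. Genes were named if called, if among the 10 largest changes either way without overlap, or if among the 3 most abundant of a family. The other members, and Xist, Eif2s3y, Mir703, Gap43, Wdr34, Ninl, Foxj1 and Rfx3, were named after their values had been seen, and each list was otherwise shown by its most abundant genes. A result that the rule would name among the listed genes is not reported here. A final period in the member rule was read as punctuation. Read as a character it leaves 62 members. Current names of 9 members came from synonyms in RefSeq (GRCm38.p6), used for names and overlaps since the files' build is mm9. Alternatives were other pseudocounts, filters, scalings, variance models, weights, a replicate block and leaving out each library. Figures used Python 3.11.15 and matplotlib 3.10.9.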

Additional observations from a re-analysis of the deposited data

How the results depend on the processing

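The number of members past an adjusted p of 0.05 was 0 under every alternative run except that without injured replicate 2, where it was 1 (Ttc9), so that leaving out a library gave 0 to 1 members. Without that library the members that did not overlap numbered 15 higher and 16 lower in injured libraries, or 20.5% and 21.9%. The shares of all genes tested were 29.4% and 14.5%. Counting overlap without that library was an alternative chosen after seeing the data. Over all genes the count past an adjusted p of 0.05 was 1. It was 2 with a pseudocount of 0.1, 3 with upper-quartile scaling, 4 with quantile normalization and 6 without the trend and robust steps. With library weights it was 134, and without genes at the lowest value it was 2. Leaving out a library gave 1 to 365 genes, the highest without injured replicate 2, and 3 and 3 without uninjured replicates 1 and 2, 2 without uninjured replicate 3 and 5 without injured replicate 1. The cause was not tested. The members' median ranged from -0.04 to 0.27 over all alternatives run. Each value lay closer to the reported 0.13 than 0.26, the SD of the members' median between the injured libraries. That limit is larger than 0.13 itself, so it also admits a change of sign. With the replicate block 221 genes and 0 members were called. Same-numbered libraries had correlations of deviations of -0.09, 0.07 and -0.08, and not every library correlated best with its own number. Taken from means of only 3 libraries, such deviations cannot settle whether the numbers pair the pools. Of the 35 members named by rule, 7 changed sign under upper-quartile scaling, 7 under quantile normalization, 6 without Mir703 and rescaled, 2 with library weights and 1 to 7 when a library was left out, none of them a called value. Unknown depth limits what can be said of genes near 1 FPKM.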
